A study of Mus musculus with 8 samples.

Results

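The comparison described here set disseminated cancer cells treated with interferon-gamma against the TUBO mammary carcinoma line. It took 4 of the 8 libraries of the series, 2 of its 4 groups, chosen by the names of their columns in the table of gene counts, and all 23478 gene rows of that table entered. Disseminated cancer cells (DCCs) are tumour cells that have left the primary site, and the submitters took these from the marrow of mice in which breast cancer arises and spreads spontaneously, before keeping them in culture. Each library carried the genotype label WT, and the labels gave no strain, sex, age or number of animals for the DCCs. The protocol common to all libraries speaks of a transgenic mouse model without naming the transgene. The treated DCCs carried the treatment label IFN-γ, with no dose or duration in the sources used here, and TUBO carried the label control. TUBO is a single cloned line grown from a carcinoma of a BALB-neuT mouse, in which the mouse mammary tumour virus promoter drives a rat Her2/neu transgene in mammary epithelium. The 2 libraries of a group were labelled biological replicates, but nothing stated whether they came from separate animals or cultures, so p-values measure the spread between these libraries only. Cell source and treatment changed together between the 2 groups and cannot be told apart from them. The values of the 2 libraries of untreated DCCs, labelled control, therefore stand beside the main results, and they were compared with the same TUBO libraries. The fourth group, 2 libraries of untreated primary cancer cells from early mammary tumour lesions with neuT in their titles, entered the fit for the shared estimate of spread and gave a few values in the closing observations.

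Interferon-gamma binds a receptor made of Ifngr1 and Ifngr2, whose kinases Jak1 and Jak2 phosphorylate STAT factors. These bind gamma-activated sites in promoters and switch on Irf1, which with other factors switches on a later set of genes through interferon-stimulated response elements: guanylate-binding proteins, antigen presentation genes and chemokines. Mammary carcinoma lines such as TUBO keep epithelial junctions and keratins, while carcinoma cells that lose them and gain Zeb1, vimentin and matrix genes are said to be in a mesenchymal state, a programme they share with fibroblasts and bone-forming cells.

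The treated DCC libraries held 27998570 and 28552291 counts in genes, and the TUBO libraries held 29318066 and 27122242. Values are CPM (counts relative to library size) on trimmed-mean-of-M-values (TMM) library sizes, so 3 counts, the floor used here for a gene with no count, were worth 0.110 and 0.125 CPM in the treated DCCs and 0.103 and 0.114 CPM in TUBO. Replicates correlated across genes with r = 0.981 in treated DCCs and 0.975 in TUBO on the log2 CPM scale, and they differed by more than counting noise, with chi-square values per degree of freedom of 160 and 33.5. Reads outside genes made up 18.3% to 24.4% of reads in these 4 libraries, and 49.2% and 31.0% in the control DCC libraries. Olfactory and vomeronasal receptor genes, silent in these cell types, had at least 1 count in 0.966% to 2% of cases in the 4 libraries, and in 47.7% and 11.9% of cases in the control DCCs, so values of the control DCCs near 1 CPM carry little weight.

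Of 17069 genes tested, 4163 were higher and 3352 were lower in treated DCCs than in TUBO, at a Benjamini-Hochberg adjusted p under 0.05 in the quasi-likelihood test of edgeR. The calls in either direction covered 44% of all genes tested, with 24.4% higher and 19.6% lower, and these shares are the background for each count of list members below. Among the calls, 3083 higher and 2339 lower genes differed by at least 2-fold, and 1777 higher and 940 lower genes by at least 8-fold. In 67.2% of genes tested the 2 treated DCC libraries and the 2 TUBO libraries did not overlap. The control DCCs, against the same TUBO libraries, had 22.1% of genes higher and 19.9% lower, 42% in all. The direct comparison of treated with control DCCs called 21.4% of genes, 12.6% higher and 8.83% lower.

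**Figure D1:**
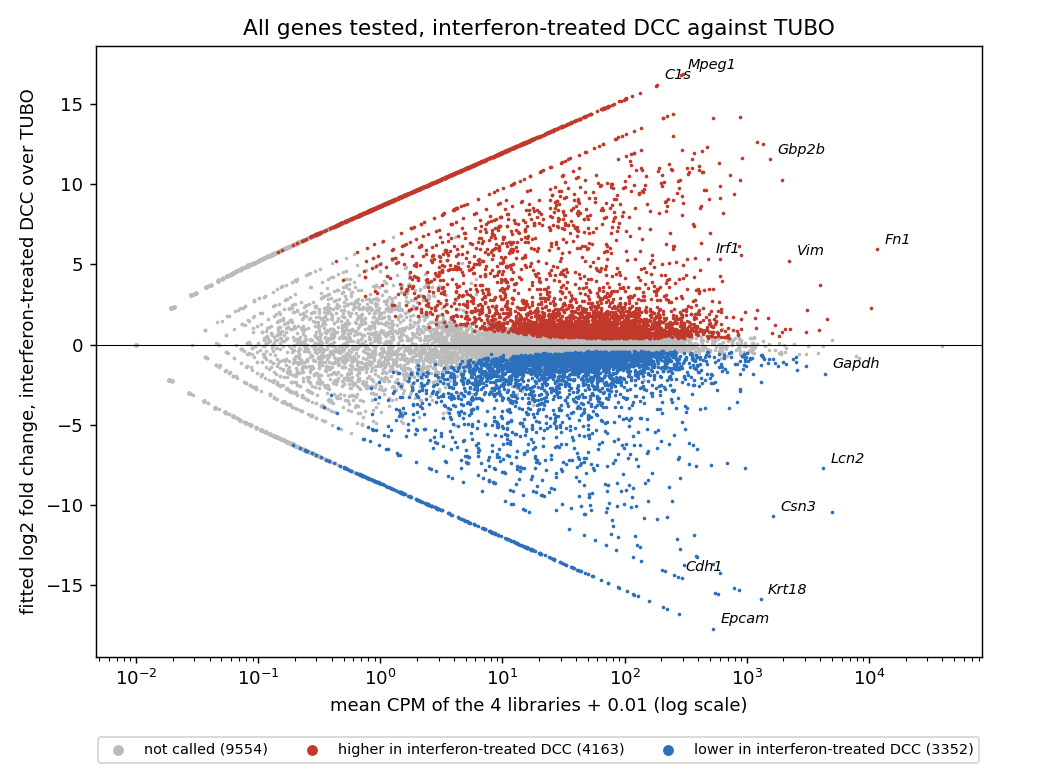
Fitted log2 fold change of each gene tested (y axis) against its mean CPM over the 4 libraries plus 0.01 (x axis, log scale), with the 4163 genes called higher in treated DCCs in red, the 3352 called lower in blue and the rest in grey. The dense oblique lines at the edges are genes with 0 counts in both libraries of one group, whose fitted fold changes depend on the prior count and are not measured sizes.

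The naming rule, the highest fitted log2 fold changes among called genes with at least 50 CPM in the higher group, picked Mpeg1, C1s, Trim30a, Rgs16, Slit2, Oaf, C1qa, Ptpn22, Lilrb4 and Aqp1. All 10 had 0 counts in both TUBO libraries, so their fitted values depend on the prior count and do not rank them by size, among themselves or against genes with a few counts in TUBO. Mpeg1, a pore-forming protein of macrophages, stood at 673 and 482 CPM in the treated DCCs, at least 5303-fold higher (edgeR adjusted p = 3.22e-06). C1s, a protease of the classical complement pathway, stood at 196 and 547 CPM in treated and 93.4 and 121 CPM in control DCCs. Treated DCCs were at least 3409-fold higher than TUBO (edgeR adjusted p = 2.69e-04). Slit2, a secreted guidance protein, stood at 185 and 229 CPM in treated and 146 and 168 CPM in control DCCs, at least 1900.4-fold higher (edgeR adjusted p = 1.22e-08). The other 7 lay between at least 1665-fold higher (edgeR adjusted p = 2.01e-05) for Aqp1, a water channel, and at least 3304-fold higher (edgeR adjusted p = 1.07e-06) for Trim30a. C1s and Lilrb4 have close relatives, and counts of such genes may be shared with them.

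The same rule in the other direction picked Epcam, Faim2, Cldn3, Fam150b, Krt18, Cytl1, Gpx2, Wfdc18, Pla2g7 and Krt8, again in no order of size. Epcam, the epithelial adhesion molecule, had 0 counts in both treated DCC libraries and 1034 and 1089 CPM in TUBO, at least 9032-fold lower (edgeR adjusted p = 2.06e-08). Faim2, an inhibitor of Fas-driven death, was also at 0 in the treated DCCs against 512 and 614 CPM, at least 4788-fold lower (edgeR adjusted p = 8.66e-09). Gpx2, an epithelial glutathione peroxidase, followed the same pattern at 222 and 260.0 CPM in TUBO, at least 2049-fold lower (edgeR adjusted p = 5.68e-08). Krt18, Wfdc18 and Krt8 held 1 to 2 counts over both treated libraries.

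The treated cells, labelled as breast cancer cells, were checked for 11 defining markers of mammary carcinoma epithelium. The values went against an epithelial profile of the treated cells. Of these 11, 10 were lower than in TUBO and none was higher, and their summed level was 35.7 and 39.9 CPM in treated DCCs against 6488 and 6953 CPM in TUBO. Epcam, Elf3, Cldn3 and Cldn7 were at 0 in both treated libraries. Krt8 and Krt18, the paired keratins of simple epithelium, stood at 0.0367 and 0 CPM and 0 and 0.0834 CPM in treated DCCs. In TUBO they stood at 1031 and 1181 CPM and 2510.3 and 2694 CPM. Nearly all of the treated cells' summed level came from Erbb2. The control DCCs summed to 27.4 and 28.8 CPM, so the near absence of these markers was shared by the untreated cells. In bulk libraries, fewer epithelial cells and less of these transcripts per cell cannot be told apart. Nor can these markers tell carcinoma cells in a mesenchymal state from cells of another kind, which was not tested.

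Every one of the 26 junction and adhesion genes tested was lower in treated DCCs, with a median log2 fold change of -9.72, or -8.02 with genes at 0 set to their bound, beside a median of 0 over all genes tested. Cdh1 (E-cadherin), the core of adherens junctions, had 0 and 0.0417 CPM in treated DCCs and 556 and 548 CPM in TUBO, a TUBO to DCC ratio of 28292 with a 95% counting interval of 5077 to 1117490.0 (edgeR adjusted p = 5.57e-09). Desmoplakin, Dsp, which ties keratin filaments to desmosomes, had 0.0733 and 0.167 CPM against 572 and 496 CPM, a log2 fold change of -12.09 ± 0.49 (edgeR adjusted p = 1.65e-07). Plakoglobin, Jup, a catenin of both junction types, kept 4.69 and 6.51 CPM against 989.8 and 1057 CPM, a log2 fold change of -7.52 ± 0.24 (edgeR adjusted p = 1.22e-08). The list member closest to TUBO was Pkp2, a desmosomal plakophilin that heart muscle and some mesenchymal cells also make, with 33.6 and 30.8 CPM against 161 and 142 CPM and a log2 fold change of -2.23 ± 0.16 (edgeR adjusted p = 1.82e-06). Of 10 keratins tested, 5 were lower and none was higher. Control DCCs had a junction list median of -7.10 against TUBO.

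The transcriptional and splicing regulators of epithelium followed, with 16 of 25 tested members lower and 4 higher. Ehf, an ETS factor of epithelia, had 0.110 and 0.209 CPM in treated DCCs and 284 and 293 CPM in TUBO, a log2 fold change of -10.80 ± 0.27 (edgeR adjusted p = 5.57e-09). Esrp2, which sets epithelial splicing, had 0.0367 and 0 CPM against 71.4 and 68.5 CPM, a TUBO to DCC ratio of 3589.8 with a 95% counting interval of 644 to 141826 (edgeR adjusted p = 1.70e-08). Sox10, a regulator of neural crest and of some mammary cells, had 0 and 0.125 CPM against 1164 and 1234 CPM, a TUBO to DCC ratio of 20455 with a 95% counting interval of 6999 to 99190.3 (edgeR adjusted p = 4.89e-08). Gata3, the luminal factor, kept 2.82 and 4.92 CPM against 101 and 93.6 CPM, a log2 fold change of -4.66 ± 0.31 (edgeR adjusted p = 2.26e-06). The higher members included Esr1, Tbx3 and Sox9, of which Esr1 and Tbx3 were at 0 counts in both TUBO libraries. The call of Sox9 was lost without either 1 of the TUBO libraries (edgeR adjusted p = 0.0701 and 0.106). Esr1, the oestrogen receptor, had 5.68 and 9.22 CPM in treated DCCs and 11.5 and 9.11 CPM in control DCCs, at least 68.4-fold higher (edgeR adjusted p = 1.03e-04). Of the milk protein list, 7 of 12 members were lower and 1, Xdh, was higher. Csn3 (kappa-casein) had 2.09 and 1.84 CPM against 3117 and 3459.6 CPM in TUBO, a log2 fold change of -10.70 ± 0.67 (edgeR adjusted p = 5.60e-06).

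Among the 16 ERBB receptors, ligands and partners tested, 7 were lower and 5 were higher. Erbb2, the receptor of the transgene's family, had 35.01 and 39.002 CPM in treated DCCs, 258 and 245 CPM in TUBO and 21.2 and 23.3 CPM in control DCCs, and the groups did not overlap. Treated DCCs differed from TUBO by a log2 fold change of -2.77 ± 0.15 (edgeR adjusted p = 2.32e-07), and from control DCCs by a log2 fold change of 0.73 ± 0.14 (edgeR adjusted p = 0.00507). The second difference was not called when the first control DCC library and the second library of early lesion cells, those richest in reads outside genes, were left out (edgeR adjusted p = 0.118). Reads of a rat neu transgene can align to mouse Erbb2, and the table cannot separate them. Erbb3, its kinase-poor partner, had 0.183 and 0.209 CPM against 200.1 and 193 CPM, a log2 fold change of -9.94 ± 0.23 (edgeR adjusted p = 4.98e-09). The ligands moved in both directions. Epiregulin, Ereg, had 531 and 1091 CPM in treated DCCs, 0 and 0.725 CPM in TUBO and 112 and 104 CPM in control DCCs, a log2 fold change of 11.17 ± 0.998 (edgeR adjusted p = 1.81e-04). Neuregulin 1, Nrg1, which binds Erbb3, had 107 and 55.4 CPM against 1.55 and 0.877 CPM, a log2 fold change of 6.05 ± 0.49 (edgeR adjusted p = 2.17e-05). Tgfa, a ligand of Egfr, had 3.12 and 2.002 CPM against 101 and 93.97 CPM, a log2 fold change of -5.24 ± 0.30 (edgeR adjusted p = 3.66e-07).

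Of 19 mesenchymal regulators and markers tested, 18 were higher in treated DCCs, with a median log2 fold change of 7.39 (7.02 at the bounds). The exception, Fgfr1, was lower at an adjusted p of 0.0307 in edgeR and was not called without the first treated or either TUBO library (edgeR adjusted p between 0.0636 and 0.281). In control DCCs 17 of the 19 were higher than in TUBO and none was lower, with a median of 5.10. Vim (vimentin), the mesenchymal intermediate filament, had 3502 and 5217 CPM in treated DCCs, 120.0 and 113 CPM in TUBO and 1465 and 1903 CPM in control DCCs. Treated DCCs differed from TUBO by a log2 fold change of 5.23 ± 0.27 (edgeR adjusted p = 1.84e-07). Zeb1, a repressor of E-cadherin, had 134 and 199 CPM against 0.0345 and 0 CPM, a DCC to TUBO ratio of 9074 with a 95% counting interval of 1628 to 358464 (edgeR adjusted p = 2.40e-08). Prrx1, a mesenchymal homeobox factor, had 227 and 317 CPM against 0.103 and 0 CPM and 449 and 499 CPM in control DCCs, a DCC to TUBO ratio of 4948 with a 95% counting interval of 1693 to 23998 (edgeR adjusted p = 1.97e-08). N-cadherin, Cdh2, had 114 and 108 CPM against 0.276 and 0 CPM, a log2 fold change of 9.54 ± 0.49 (edgeR adjusted p = 9.78e-07). Twist1 was present on both sides, at 140.1 and 235 CPM against 64.9 and 73.4 CPM with a log2 fold change of 1.44 ± 0.22 (edgeR adjusted p = 4.18e-04).

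**Figure D2:**
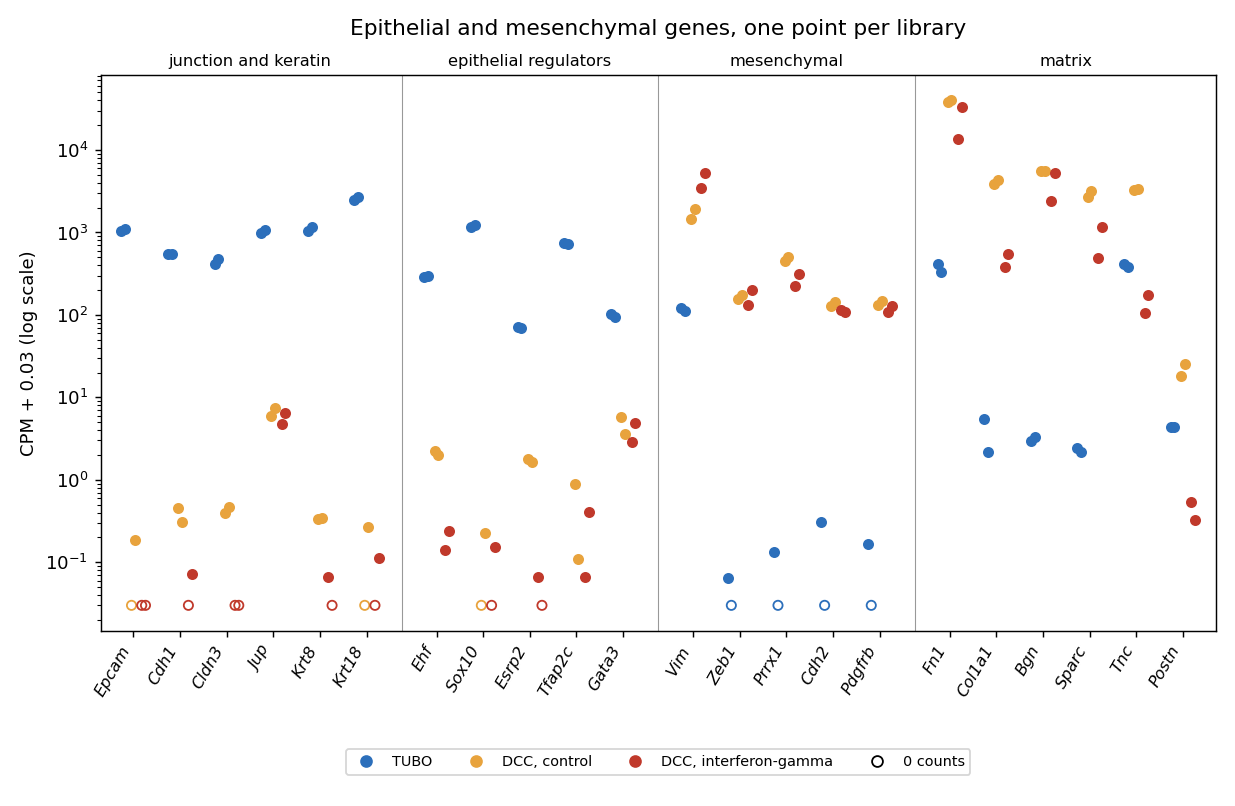
CPM plus 0.03 on a log axis for 22 genes, one point per library, in TUBO (blue), control DCCs (orange) and interferon-treated DCCs (red), with open circles for 0 counts. Most epithelial genes sit near 0 in both DCC groups, with Jup and Gata3 at a few CPM in treated DCCs. Vim to Sparc sit above TUBO in both DCC groups, and Tnc and Postn sit below TUBO in treated DCCs and above it in control DCCs.

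Matrix genes formed the second large block on the DCC side. Of 26 matrix glycoproteins and proteoglycans tested, 23 were higher and 2 were lower, with a median of 8.21 (6.08 at the bounds). In control DCCs 25 were higher than in TUBO and none was lower, with a larger median of 10.27 (7.85 at the bounds). Summed over the list, the level was 18037 and 43248 CPM in treated DCCs and 54912 and 58745 CPM in control DCCs. Fibronectin, Fn1, was among the most abundant transcripts of the treated cells at 13467 and 32845 CPM, against 418 and 332 CPM in TUBO, a log2 fold change of 5.95 ± 0.47 (edgeR adjusted p = 3.60e-06). Biglycan, Bgn, a small proteoglycan of bone and connective tissue, had 2438 and 5301 CPM against 2.90 and 3.32 CPM, a log2 fold change of 10.28 ± 0.55 (edgeR adjusted p = 1.35e-06). Sparc, a collagen-binding protein of bone, had 488 and 1161 CPM against 2.38 and 2.14 CPM, a log2 fold change of 8.51 ± 0.50 (edgeR adjusted p = 3.31e-06). The second treated library was more than 2-fold above the first in each of these 3 genes, and both stood above TUBO.

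Tnc and Postn, the 2 lower matrix genes, are adhesion-modulating proteins of tumour stroma, and control DCCs stood on the other side of TUBO. Tenascin C, Tnc, stood at 107 and 176 CPM in treated DCCs, below 413 and 382 CPM in TUBO, a log2 fold change of -1.49 ± 0.23 (edgeR adjusted p = 4.36e-04). In control DCCs it stood at 3247 and 3354 CPM, above TUBO by a log2 fold change of 3.05 ± 0.24 (edgeR adjusted p = 4.26e-06). Postn (periostin) stood at 0.513 and 0.292 CPM in treated DCCs and 4.38 and 4.31 CPM in TUBO, a log2 fold change of -3.40 ± 0.46 (edgeR adjusted p = 1.75e-04). Its level in control DCCs was 18.1 and 25.6 CPM. The test of treated against control DCCs gave log2 fold changes of -4.54 ± 0.26 for Tnc (edgeR adjusted p = 2.95e-06) and -5.73 ± 0.49 for Postn (edgeR adjusted p = 3.54e-05).

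Of 30 collagen chains and collagen-processing enzymes, 18 were higher and 5 were lower. Without the second treated DCC library, 8 were lower. Col1a1, a chain of type I collagen, had 379 and 555 CPM in treated DCCs and 5.42 and 2.14 CPM in TUBO, a log2 fold change of 6.94 ± 0.45 (edgeR adjusted p = 4.76e-06), and 3899.9 and 4274 CPM in control DCCs. The lysyl oxidase Lox, which cross-links collagen, had 486 and 812 CPM against 0.552 and 0.0381 CPM, a log2 fold change of 11.03 ± 0.97 (edgeR adjusted p = 1.68e-04). The lower genes included the basement membrane chains Col4a1, Col4a2, Col15a1 and Col18a1. Col4a1 had 42.01 and 76.5 CPM against 468 and 407 CPM, a log2 fold change of -2.89 ± 0.26 (edgeR adjusted p = 1.33e-05). Proteases and their inhibitors counted 20 higher and 2 lower of 25 tested. Timp3, an inhibitor bound to matrix, had 1140.1 and 1159.7 CPM against 58.9 and 56.98 CPM, a log2 fold change of 4.31 ± 0.19 (edgeR adjusted p = 5.39e-08). The urokinase receptor Plaur had 158 and 165 CPM in treated DCCs, 18.9 and 24.4 CPM in TUBO and 17.5 and 11.4 CPM in control DCCs, a log2 fold change of 2.90 ± 0.24 (edgeR adjusted p = 4.57e-06). Mmp15, a membrane-bound metalloprotease of epithelia, had 0.440 and 0 CPM against 247 and 250.5 CPM, a log2 fold change of -10.04 ± 0.64 (edgeR adjusted p = 2.24e-05).

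Of 27 integrins and laminins tested, 8 were higher and 11 were lower. Itga5, which with Itgb1 forms the fibronectin receptor, had 196 and 345 CPM in treated DCCs and 0.138 and 0.114 CPM in TUBO, a log2 fold change of 11.003 ± 0.72 (edgeR adjusted p = 2.85e-05). Itga6, a laminin receptor chain of epithelium, had 40.1 and 35.9 CPM against 487 and 411 CPM, a log2 fold change of -3.56 ± 0.17 (edgeR adjusted p = 9.11e-08). Its hemidesmosomal partner Itgb4 had 1.80 and 6.97 CPM against 559 and 555 CPM, a log2 fold change of -7.003 ± 0.64 (edgeR adjusted p = 2.03e-04). Itgb1, shared by both receptor sets, had 892 and 1098 CPM in treated DCCs and 793 and 798 CPM in TUBO and did not pass the test (edgeR adjusted p = 0.164), although it passed without the first treated library (edgeR adjusted p = 0.0341) and in DESeq2 (adjusted p = 0.0233).

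Markers of marrow stroma and bone were measured because the cells came from marrow. Of 17 stromal and fibroblast markers tested, 14 were higher and 2, Nes and Foxc1, were lower. Their summed level was 2337 and 3616 CPM in treated DCCs, 7959 and 9074 CPM in control DCCs and 721 and 702 CPM in TUBO. The call of Foxc1 was lost without the first treated or either TUBO library (edgeR adjusted p between 0.0609 and 0.122). Pdgfrb, a receptor of fibroblasts and pericytes, had 107 and 127 CPM against 0.138 and 0 CPM and 131 and 148 CPM in control DCCs, a log2 fold change of 10.57 ± 1.13 (edgeR adjusted p = 4.23e-04). Ly6a (Sca-1), a stem and stromal cell antigen, had 755 and 1373 CPM in treated and 17.04 and 23.01 CPM in control DCCs against 0.0690 and 0.0381 CPM, a DCC to TUBO ratio of 19214 with a 95% counting interval of 6574 to 93171 (edgeR adjusted p = 2.66e-06). Of 18 osteoblast and cartilage markers tested, 11 were higher and none was lower (1 lower without the second treated library), with summed levels of 10300.1 and 25305 CPM against 3519 and 3982 CPM, most of it Spp1. Control DCCs summed to 16113 and 21843 CPM over the osteoblast and cartilage list. Runx2, the master factor of bone formation, had 67.8 and 91.9 CPM in treated DCCs, 36.7 and 34.3 CPM in TUBO and 325 and 346 CPM in control DCCs. Treated DCCs differed from TUBO by a log2 fold change of 1.17 ± 0.18 (edgeR adjusted p = 4.26e-04). Alpl, the alkaline phosphatase of osteoblasts, had 43.5 and 79.5 CPM in treated DCCs, 90.02 and 84.3 CPM in TUBO and 1382 and 1476 CPM in control DCCs, and did not pass the test against TUBO (edgeR adjusted p = 0.185). It was lower than in TUBO without the second treated library (edgeR adjusted p = 0.00115) and with no filter on low counts (edgeR adjusted p = 0.0410). Treated DCCs had less Alpl than control DCCs, with a log2 fold change of -4.54 ± 0.32 (edgeR adjusted p = 2.80e-05). Of 14 contractile genes tested, 6 were higher and 3 were lower. Acta2, the actin of smooth muscle and myofibroblasts, had 6.12 and 4.34 CPM in treated DCCs and 0 in TUBO, at least 48.003-fold higher (edgeR adjusted p = 1.06e-05). The part of stromal or bone-forming cells in the matrix and mesenchymal results was not tested.

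Hox genes record the position along the body axis where a cell lineage arose. Of 35 Hox genes tested, 14 were higher and 7 were lower in treated DCCs, the latter close to the 19.6% lower over all genes tested. The lower genes included Hoxa3, Hoxa4, Hoxa5, Hoxb2, Hoxb3 and Hoxb4, from the front of the HoxA and HoxB clusters. The 14 higher genes were 4 from Hoxa9 to Hoxa13, 8 of the HoxC cluster from Hoxc4 to Hoxc13, and Hoxd8 and Hoxd9. The call of Hoxa13 was lost with the replicate block (edgeR adjusted p = 0.0528) and without the first treated or either TUBO library (edgeR adjusted p between 0.0735 and 0.0789). The call of Hoxc4 was lost without either treated library or the first TUBO library (edgeR adjusted p between 0.0514 and 0.0816). Hoxa3 had 7.26 and 11.1 CPM in treated DCCs and 130.2 and 135 CPM in TUBO, a log2 fold change of -3.86 ± 0.24 (edgeR adjusted p = 7.03e-07). Hoxb2 had 0.257 and 0 CPM against 19.9 and 32.2 CPM, a log2 fold change of -7.54 ± 1.20 (edgeR adjusted p = 0.0021). On the other side, Hoxa11 had 19.5 and 20.3 CPM against 0, at least 183-fold higher (edgeR adjusted p = 6.05e-04). Hoxc8 had 38.2 and 48.3 CPM against 0.0345 and 0 CPM, a DCC to TUBO ratio of 2368 with a 95% counting interval of 425 to 93562 (edgeR adjusted p = 4.39e-05). Hoxc10, Hoxc13 and Hoxd8 were at 0 counts in both TUBO libraries, and in treated DCCs at 41.1 and 37.04 CPM, 26.4 and 32.04 CPM and 24.3 and 32.1 CPM. Control DCCs held 17.5 and 16.2 CPM of Hoxa11, 57.5 and 53.9 CPM of Hoxc8 and 58.99 and 55.8 CPM of Hoxc10.

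**Figure D3:**
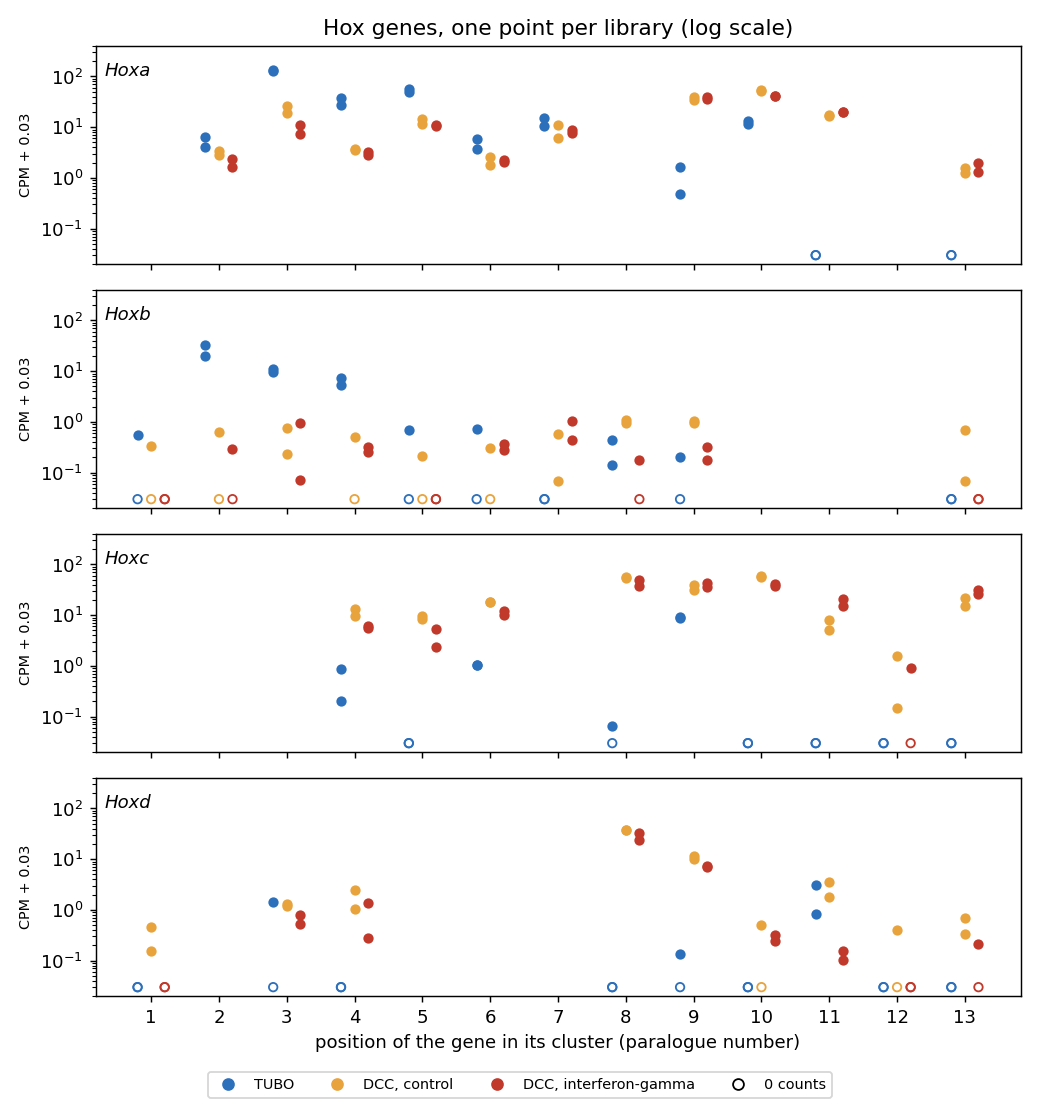
CPM plus 0.03 on a log axis for Hox genes of the 4 clusters, ordered by paralogue number on the x axis, one point per library, in TUBO (blue), control DCCs (orange) and interferon-treated DCCs (red), with open circles for 0 counts. TUBO is highest at Hoxa3 to Hoxa5 and Hoxb2 to Hoxb4, and both DCC groups are highest at Hoxa9 to Hoxa11, Hoxc8 to Hoxc13 and Hoxd8.

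Genes of the interferon-gamma pathway itself were read first among the interferon lists. Of 20 receptor, JAK-STAT and IRF genes tested, 14 were higher in treated DCCs than in TUBO and 3, Stat3, Cish and Irf3, were lower, with a median log2 fold change of 2.33, while control DCCs had a median of -0.25 against the same TUBO libraries. Without the first treated library, or without the first TUBO library, 1 of the 3 lower calls was left. The 2 receptor chains differed little. Ifngr1 had 42.996 and 30.99 CPM in treated DCCs and 26.1 and 22.998 CPM in TUBO, a log2 fold change of 0.59 ± 0.21 (edgeR adjusted p = 0.0433), a call lost without the first treated library (edgeR adjusted p = 0.267) or 1 of the TUBO libraries (edgeR adjusted p = 0.0613 and 0.201). Ifngr2 had 70.5 and 79.05 CPM against 43.1 and 54.1 CPM, a log2 fold change of 0.62 ± 0.18 (edgeR adjusted p = 0.015), a call lost without the first TUBO library (edgeR adjusted p = 0.09).

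Irf1 stood far higher in treated DCCs than in either other group. It had 865 and 1018 CPM in treated DCCs, 25.3 and 20.9 CPM in TUBO and 10.8 and 16.6 CPM in control DCCs, a log2 fold change of 5.35 ± 0.24 (edgeR adjusted p = 7.19e-08). Socs1, the feedback inhibitor of JAK kinases, had 70.7 and 99.3 CPM in treated DCCs, 0.345 and 0 CPM in TUBO and 24.7 and 22.5 CPM in control DCCs, a log2 fold change of 8.84 ± 0.65 (edgeR adjusted p = 1.91e-05). Batf2, a partner of Irf1 in macrophages, had 75.99 and 114 CPM in treated DCCs and 0 in TUBO, at least 871-fold higher (edgeR adjusted p = 1.29e-06). Irf8, a myeloid and interferon-induced factor, had 101 and 96.3 CPM in treated DCCs, 60.3 and 77.4 CPM in TUBO and 1.70 and 2.73 CPM in control DCCs. It did not pass the test against TUBO (edgeR adjusted p = 0.0637), but passed in 4 of 13 alternative analyses: without the second treated library (edgeR adjusted p = 0.0467), with RLE size factors (edgeR adjusted p = 0.0453), with the replicate block (edgeR adjusted p = 0.0437) and in DESeq2 (adjusted p = 0.0419). Treated DCCs exceeded control DCCs by a log2 fold change of 5.44 ± 0.26 (edgeR adjusted p = 1.09e-06).

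The promoters of 4 genes that were far higher in treated DCCs are shown because they hold the elements named above, each as the 250 bases before the RefSeq transcription start on build GRCm38.p6, 5′ to 3′ on the gene's strand. Capitals mark matches to the gamma-activated site, TTCNNNGAA, or to the core of the interferon-stimulated response element, GAAANNGAAA or its reverse complement TTTCNNTTTC. Irf1 (chr11:53769764-53770013, plus strand) and Cxcl10 (chr5:92348890-92349139, minus strand) hold 1 match each, to the former and to the latter in that order. Igtp (chr11:58199306-58199555, plus strand) holds 1 match to each. In Bst2 (chr8:71537473-71537722, minus strand) a gamma-activated site and 2 response element cores overlap in 1 run.
Irf1: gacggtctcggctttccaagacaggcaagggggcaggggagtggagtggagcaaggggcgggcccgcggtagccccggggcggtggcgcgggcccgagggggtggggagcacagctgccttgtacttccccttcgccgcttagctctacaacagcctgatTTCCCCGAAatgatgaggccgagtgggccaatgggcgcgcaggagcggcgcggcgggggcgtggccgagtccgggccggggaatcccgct
Cxcl10: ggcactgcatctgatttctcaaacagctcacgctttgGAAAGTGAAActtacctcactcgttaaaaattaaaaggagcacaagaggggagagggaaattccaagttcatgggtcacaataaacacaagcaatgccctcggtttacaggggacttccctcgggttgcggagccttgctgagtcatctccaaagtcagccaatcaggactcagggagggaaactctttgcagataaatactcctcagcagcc
Igtp: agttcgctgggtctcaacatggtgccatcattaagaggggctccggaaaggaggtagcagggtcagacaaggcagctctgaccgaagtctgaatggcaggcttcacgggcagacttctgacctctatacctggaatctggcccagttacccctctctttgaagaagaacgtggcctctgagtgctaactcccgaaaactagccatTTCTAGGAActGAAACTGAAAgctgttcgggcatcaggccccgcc
Bst2: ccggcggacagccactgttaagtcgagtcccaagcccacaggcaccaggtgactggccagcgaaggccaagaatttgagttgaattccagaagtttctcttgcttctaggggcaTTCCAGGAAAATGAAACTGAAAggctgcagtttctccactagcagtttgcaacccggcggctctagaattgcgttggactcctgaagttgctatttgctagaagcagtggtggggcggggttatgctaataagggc
Among the 27025 gene symbols with a promoter in the table, 7.18% held the gamma-activated site and 3.04% held the response element core in these 250 bases, on either strand. The 4 were chosen for holding a match, and the same windows of Tap1 and Psmb9, also higher in treated DCCs, held none. A match describes the letters only. The counts of the 4 genes follow: Irf1 above, and the others with their families.

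GBP and IRG GTPases are the large interferon-induced proteins that attack vacuoles of intracellular microbes. All 18 members tested were higher in treated DCCs, with a median log2 fold change of 10.33 (9.79 at the bounds), against 3.09 in control DCCs. Igtp had 1379.5 and 1151 CPM in treated DCCs, 6.17 and 2.48 CPM in TUBO and 2.50 and 2.77 CPM in control DCCs, a log2 fold change of 8.18 ± 0.43 (edgeR adjusted p = 2.04e-06). Gbp3 had 1027 and 922 CPM against 1.45 and 2.10 CPM, a log2 fold change of 9.10 ± 0.25 (edgeR adjusted p = 7.80e-09). Gbp2b was the most abundant member in treated DCCs by CPM, which takes no account of transcript length, at 2509 and 3691 CPM against 1.14 and 0.877 CPM. Summed over the list, the level was 14829 and 16781 CPM in treated DCCs, 55.4 and 33.9 CPM in TUBO and 143 and 149 CPM in control DCCs. Tgtp1 and Tgtp2 are near-identical copies and the Gbp genes are related sequences. Counts can be shared between such genes, so the split between members is uncertain.

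All 32 antiviral interferon-stimulated genes tested were also higher, with a median of 7.24 (6.68 at the bounds), against 0.40 in control DCCs. Bst2 (tetherin), which holds budding virions at the membrane, had 417 and 421 CPM in treated DCCs, 25.8 and 26.5 CPM in TUBO and 10.8 and 10.9 CPM in control DCCs, a log2 fold change of 4.002 ± 0.16 (edgeR adjusted p = 3.17e-08). Samhd1, which depletes nucleotides, had 649 and 744 CPM against 35.4 and 40.1 CPM and 152 and 169 CPM in control DCCs, a log2 fold change of 4.21 ± 0.17 (edgeR adjusted p = 3.71e-08). Several classic antiviral genes differed more between the 2 treated libraries. Ifit1, which binds foreign RNA caps, had 1294 and 488 CPM in treated DCCs against 0.793 and 1.49 CPM in TUBO, a log2 fold change of 9.62 ± 0.69 (edgeR adjusted p = 6.23e-05). Mx1, a GTPase against influenza viruses, had 215 and 43.8 CPM in treated DCCs against 0.310 and 1.14 CPM in TUBO, a log2 fold change of 7.49 ± 1.54 (edgeR adjusted p = 0.0105). The first treated library was the higher one in each of these 2 genes, and treated DCCs and TUBO did not overlap. The call of Mx1 was lost without the first treated library (edgeR adjusted p = 0.135) or without 1 of the TUBO libraries (edgeR adjusted p = 0.133 and 0.0877).

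**Figure D4:**
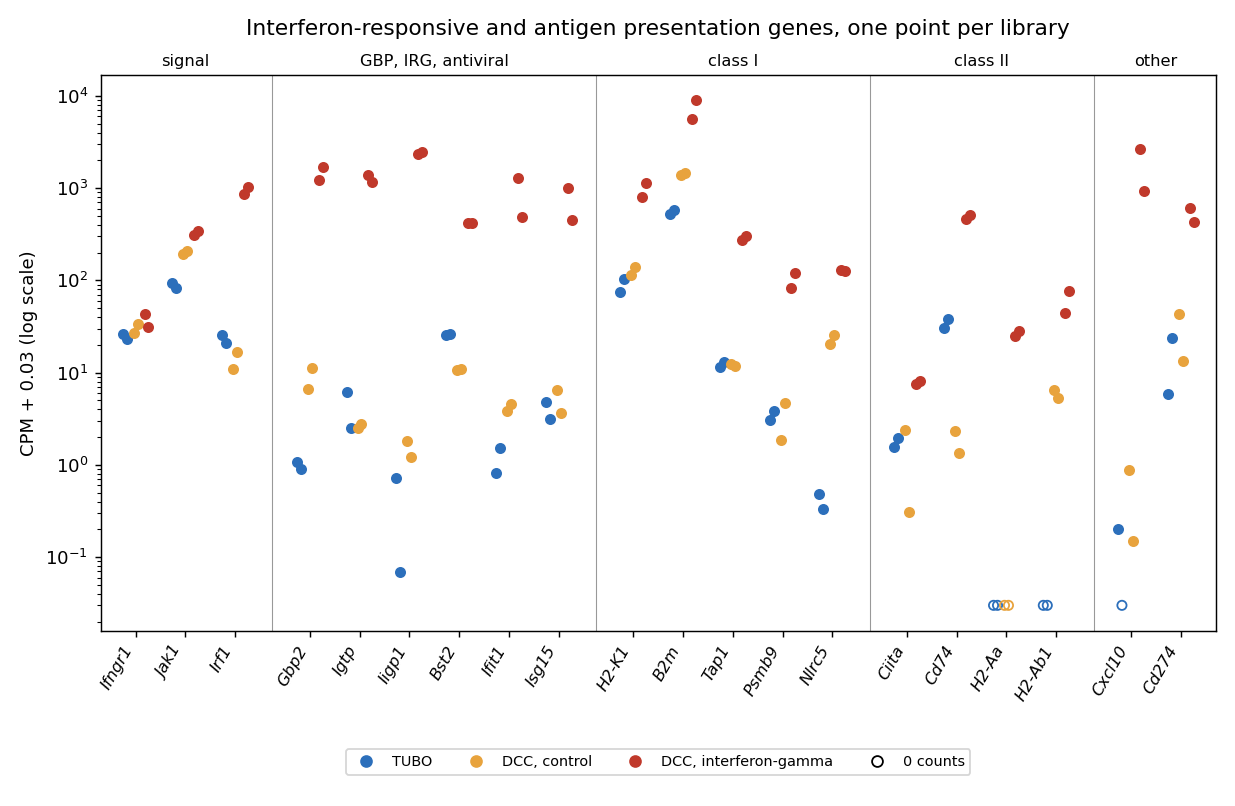
CPM plus 0.03 on a log axis for 20 genes of interferon signalling, GBP, IRG and antiviral proteins, antigen presentation and immune ligands, one point per library, in TUBO (blue), control DCCs (orange) and interferon-treated DCCs (red), with open circles for 0 counts. Treated DCCs sit above TUBO in each gene, with the smallest gap at Ifngr1, while control DCCs sit close to TUBO in Tap1 and Psmb9.

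MHC class I genes display peptides to CD8 T cells, and 18 of 19 members of the presentation list that were tested were higher in treated DCCs while none was lower. The median log2 fold change was 3.35, against -0.03 in control DCCs. H2-K1, a classical heavy chain, had 807 and 1147 CPM in treated DCCs, 75.1 and 103 CPM in TUBO and 115 and 140.1 CPM in control DCCs, a log2 fold change of 3.45 ± 0.24 (edgeR adjusted p = 1.67e-06). B2m, the shared light chain, had 5668 and 9007 CPM against 529 and 583 CPM and 1377 and 1458 CPM in control DCCs, a log2 fold change of 3.72 ± 0.27 (edgeR adjusted p = 2.14e-06). The peptide transporter Tap1 had 275 and 302 CPM against 11.6 and 13.2 CPM, a log2 fold change of 4.55 ± 0.17 (edgeR adjusted p = 2.38e-08). Nlrc5, the class I transactivator, had 128 and 127 CPM against 0.448 and 0.305 CPM and 20.6 and 25.3 CPM in control DCCs, a log2 fold change of 8.38 ± 0.34 (edgeR adjusted p = 3.38e-08). Psmb8, an immunoproteasome subunit, was already at 47.6 and 56.6 CPM in TUBO and at 1.77 and 2.93 CPM in control DCCs, and treated DCCs had 85.3 and 98.5 CPM with a log2 fold change of 0.82 ± 0.24 (edgeR adjusted p = 0.0174), a call lost without the first TUBO library (edgeR adjusted p = 0.0752). Counts of H2-K1, H2-D1 and the H2-Q and H2-T genes can be shared between these related sequences.

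MHC class II genes, which display peptides to CD4 T cells, were higher in 8 of 11 members tested and lower in 1, Ifi30, whose call was lost without the first treated or either TUBO library (edgeR adjusted p between 0.106 and 0.163). The median was 11.25 (6.79 at the bounds). In control DCCs 6 of the 11 were higher than in TUBO and 2 were lower, with a median of 5.72 (1.87 at the bounds). Cd74, the invariant chain, had 464 and 512 CPM in treated DCCs, 30.4 and 38.1 CPM in TUBO and 2.31 and 1.31 CPM in control DCCs. It was thus above TUBO with treatment, by a log2 fold change of 3.83 ± 0.37 (edgeR adjusted p = 1.13e-04), and below it without, by a log2 fold change of -4.29 ± 0.43 (edgeR adjusted p = 1.41e-04). H2-Ab1, a beta chain, had 43.99 and 76.8 CPM in treated DCCs and 0 in TUBO, at least 554-fold higher (edgeR adjusted p = 2.81e-05). Control DCCs held 6.51 and 5.27 CPM of H2-Ab1. H2-Aa, its alpha partner, had 24.9 and 28.5 CPM in treated DCCs and 0 in both TUBO and control DCCs, at least 245-fold higher (edgeR adjusted p = 2.17e-05). Ciita, the class II transactivator, had 7.51 and 8.13 CPM in treated DCCs and 1.52 and 1.95 CPM in TUBO. The groups did not overlap, but the difference did not pass the test (edgeR adjusted p = 0.0622), and it passed in 4 of 13 alternative analyses.

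Of 27 chemokines and cytokines tested, 18 were higher and 1, Csf3, was lower, with a median of 4.40 (3.89 at the bounds). Cxcl10, a T-cell attractant, had 2635 and 922 CPM in treated DCCs, 0.172 and 0 CPM in TUBO and 0.852 and 0.119 CPM in control DCCs, a log2 fold change of 14.19 ± 1.14 (edgeR adjusted p = 1.07e-04). Csf1, the macrophage growth factor, had 1284 and 1067 CPM in treated DCCs and 1192 and 1261 CPM in control DCCs against 32.5 and 25.6 CPM in TUBO, a log2 fold change of 5.34 ± 0.22 (edgeR adjusted p = 3.79e-08). Cxcl12, the marrow homing signal, had 25.2 and 21.4 CPM in treated DCCs and 85.1 and 119 CPM in control DCCs against 0.0345 and 0 CPM, a DCC to TUBO ratio of 1294 with a 95% counting interval of 232 to 51142 (edgeR adjusted p = 1.31e-07). Csf3, the granulocyte growth factor, had 0 counts in both treated libraries and 38.5 and 43.9 CPM in TUBO, at least 351-fold lower (edgeR adjusted p = 2.71e-04). Without the second treated library 3 members were lower.

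Ligands that T cells read were less stable between libraries. Of 16 checkpoint, costimulation and adhesion genes tested, 10 were higher and 3 were lower, but leaving out 1 library at a time left between 3 and 6 higher: 3 without the first treated library, 4 without the second, 5 without the first TUBO library and 6 without the second. Cd274 (PD-L1), the ligand of the inhibitory receptor PD-1, had 603 and 426 CPM in treated DCCs, 5.79 and 23.5 CPM in TUBO and 43.5 and 13.4 CPM in control DCCs. Treated DCCs did not overlap TUBO, whereas control DCCs did, and the difference was a log2 fold change of 5.14 ± 1.34 (edgeR adjusted p = 0.0265). That call was lost without any 1 of the 4 libraries (edgeR adjusted p between 0.0962 and 0.184) and with the replicate number as a block (edgeR adjusted p = 0.0916). Icam1, an adhesion molecule for leukocytes, had 142 and 149 CPM in treated DCCs, 0 in TUBO and 2.92 and 4.16 CPM in control DCCs, at least 1336-fold higher (edgeR adjusted p = 5.90e-08). Lgals9, a galectin that binds Tim-3, had 73.1 and 42.3 CPM against 8.14 and 6.75 CPM, a log2 fold change of 2.95 ± 0.31 (edgeR adjusted p = 2.71e-05). The poliovirus receptor relative Pvrl2 was lower, at 9.53 and 14.02 CPM against 35.6 and 43.2 CPM, a log2 fold change of -1.74 ± 0.26 (edgeR adjusted p = 3.40e-04).

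Of 27 genes of apoptosis, necroptosis and pyroptosis tested, 17 were higher and 4 were lower, and 2 were lower without the first or without the second TUBO library. The median log2 fold change was 0.76. Birc3, an inhibitor of apoptosis, had 34.4 and 28.2 CPM in treated DCCs, 0.172 and 0 CPM in TUBO and 7.97 and 12.4 CPM in control DCCs, a log2 fold change of 8.37 ± 0.70 (edgeR adjusted p = 6.40e-06). Casp4, a caspase of the inflammatory type, had 107 and 83.97 CPM against 29.4 and 36.2 CPM, a log2 fold change of 1.54 ± 0.21 (edgeR adjusted p = 1.80e-04). Complement genes counted 14 higher and 1 lower of 20, with a median of 6.82 (5.11 at the bounds). Control DCCs had 13 higher and 1 lower against TUBO, with a median of 7.22 (3.60 at the bounds). C4b, which marks surfaces for removal, had 178 and 382 CPM in treated DCCs, 117 and 120.5 CPM in control DCCs and 0.207 and 0.0763 CPM in TUBO, a log2 fold change of 10.87 ± 0.71 (edgeR adjusted p = 2.77e-05), and it can share counts with C4a. Cd59a, which blocks the terminal complex, had 1.39 and 2.50 CPM against 34.9 and 37.9 CPM, a log2 fold change of -4.23 ± 0.30 (edgeR adjusted p = 1.90e-06).

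Most macrophage transcripts were higher than in TUBO in both DCC groups. Of 19 macrophage and monocyte markers tested, 16 were higher and 1, Cd14, was lower, a call lost without the first treated or the second TUBO library (edgeR adjusted p = 0.102 and 0.227). Their summed level was 2411 and 1786 CPM in treated DCCs, 177 and 184 CPM in control DCCs and 78.4 and 110.5 CPM in TUBO, where Cd14 made up most of the sum. In control DCCs 14 of the 19 markers were higher than in TUBO and 1 was lower. Against control DCCs, treated DCCs had 14 of the 19 higher and 0 lower. Csf1r, the receptor of the macrophage growth factor, had 193 and 147 CPM in treated DCCs, 18.5 and 16.9 CPM in control DCCs and 0.0345 and 0 CPM in TUBO, a DCC to TUBO ratio of 9478 with a 95% counting interval of 1701 to 374420.0 (edgeR adjusted p = 9.73e-05). C1qa, a complement chain made by macrophages, had 238 and 168 CPM in treated DCCs, 8.95 and 12.5 CPM in control DCCs and 0 in TUBO. Pan-leukocyte genes counted 7 higher and 2 lower of 10 in treated DCCs against TUBO. The counts in control DCCs were also 7 higher and 2 lower. Laptm5, a lysosomal protein of blood cells, had 169.8 and 156 CPM in treated DCCs, 14.7 and 16.1 CPM in control DCCs and 0 in TUBO, at least 1495-fold higher (edgeR adjusted p = 3.23e-05). The 2 pan-leukocyte genes lower in treated DCCs were Lcp1 and Arhgdib. Of the 3 T and NK cell, 1 B cell, 3 granulocyte, 5 erythroid and 5 osteoclast markers tested, edgeR called 0, and 3 had an unadjusted p under 0.05. DESeq2 called 1 B cell, 1 erythroid and 1 osteoclast marker higher and 1 erythroid marker lower. In edgeR, 1 osteoclast marker was higher and 1 erythroid marker lower with only the 2 groups in the fit, and likewise without the first control DCC and second early lesion libraries, and 1 erythroid marker was higher without the first TUBO library. Of 10 endothelial markers 1 was higher and 1 was lower. That higher call was lost without the first treated or either TUBO library, and with the replicate block. The number higher was 2 with no filter on low counts, 3 with only the 2 groups in the fit and 4 in DESeq2. Of 10 adipocyte markers 5 were higher and none was lower, with 2 higher without the second treated library and 3 without the first treated or the first TUBO library. The macrophage sums stood beside the class II, Mpeg1 and complement results, and their part in those results was not tested.

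**Figure D5:**
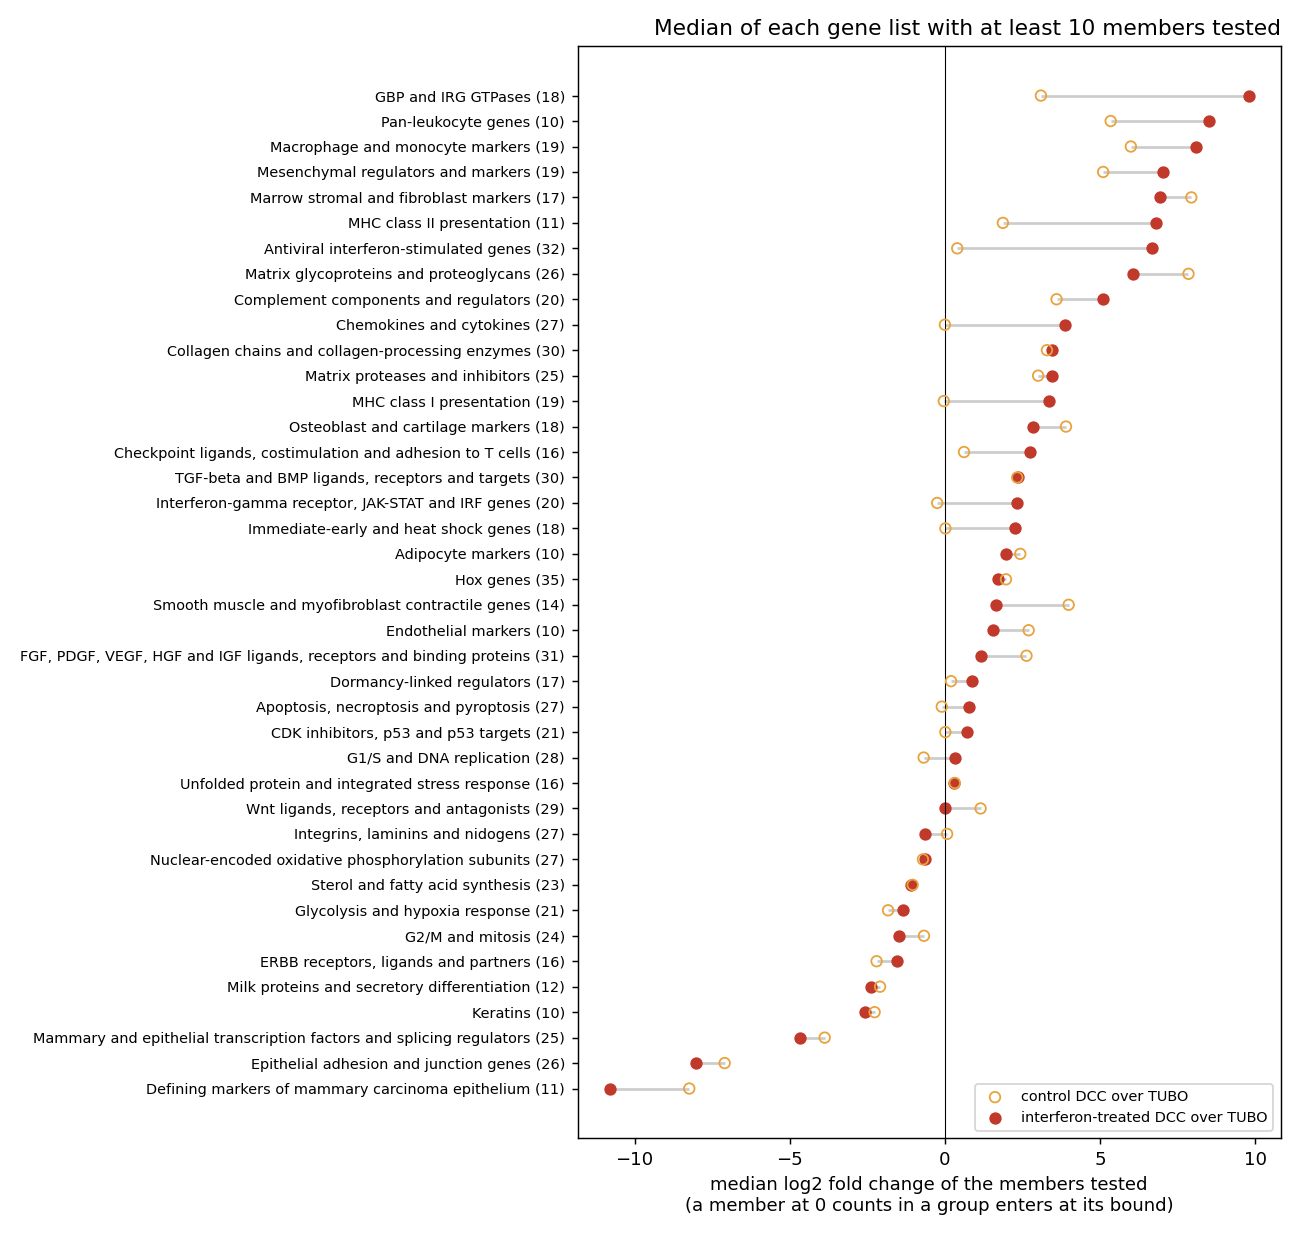
Median log2 fold change against TUBO of the members tested in each list with at least 10 members, for interferon-treated DCCs (filled) and control DCCs (open), with members at 0 counts in a group entered at their bound and the number tested in parentheses. Both comparisons use the same TUBO libraries, and the widest gaps between the 2 points lie in the GBP and IRG, antiviral and class II lists.

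Mitotic genes were lower in treated DCCs, with 20 of 24 G2/M genes lower and none higher (1 higher without the first TUBO library), and a median log2 fold change of -1.48 beside -0.67 in control DCCs. Ccnb1, cyclin B1, had 2.97 and 4.42 CPM in treated DCCs, 20.1 and 26.6 CPM in TUBO and 6.64 and 9.54 CPM in control DCCs, a log2 fold change of -2.66 ± 0.27 (edgeR adjusted p = 2.58e-05). Kif11, a motor of the spindle, had 6.01 and 6.97 CPM against 39.04 and 31.8 CPM and 13.1 and 18.1 CPM in control DCCs, a log2 fold change of -2.45 ± 0.21 (edgeR adjusted p = 7.23e-06). Mki67, which marks cycling cells, had 85.4 and 166 CPM in treated DCCs, 389 and 300.2 CPM in TUBO and 209.9 and 313 CPM in control DCCs, a log2 fold change of -1.46 ± 0.34 (edgeR adjusted p = 0.00825). Its call was lost without the first TUBO library (edgeR adjusted p = 0.0524). Replication genes were mixed. Of 28 G1/S genes, 7 were higher and 4 were lower, and without the second TUBO library 3 were higher. Cdk6, a G1 kinase, had 102 and 91.1 CPM against 25.9 and 21.1 CPM, a log2 fold change of 2.04 ± 0.18 (edgeR adjusted p = 8.36e-06). Ccnd2, cyclin D2, had 641 and 681 CPM in treated DCCs and 652 and 719 CPM in control DCCs against 101 and 87.99 CPM in TUBO, a log2 fold change of 2.81 ± 0.17 (edgeR adjusted p = 4.61e-07).

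Of 21 CDK inhibitors, p53 genes and p53 targets, 11 were higher and 3 were lower, and 6 were higher without the second TUBO library. The neighbouring inhibitors Cdkn2a and Cdkn2b had no count in either TUBO library. Cdkn2a (chr4:89274471-89294653, minus strand, GENCODE M21 on GRCm38), which encodes p16 and p19, had 29.3 and 28.6 CPM in treated DCCs and 21.9 and 14.97 CPM in control DCCs, at least 266-fold higher (edgeR adjusted p = 2.80e-07). Cdkn2b (chr4:89306299-89311039, minus strand) had 3.67 and 6.05 CPM in treated DCCs and 7.37 and 4.48 CPM in control DCCs, at least 44.6-fold higher (edgeR adjusted p = 3.08e-05). Mtap, the gene next to Cdkn2a (chr4:89137122-89181081, plus strand), was present in TUBO at 25.6 and 23.04 CPM against 169 and 207 CPM in treated DCCs, a log2 fold change of 2.95 ± 0.17 (edgeR adjusted p = 4.03e-07). Klhl9, farther out on that side (chr4:88718292-88722465, minus strand), had 54.9 and 45.5 CPM in TUBO and 84.8 and 108 CPM in treated DCCs, a log2 fold change of 0.94 ± 0.21 (edgeR adjusted p = 0.00411). Mtap and Klhl9 were looked at after the values of Cdkn2a were seen. Cdkn1a (p21), the main p53 target, had 382 and 345 CPM in treated DCCs, 191 and 207 CPM in TUBO and 186 and 174 CPM in control DCCs, a log2 fold change of 0.87 ± 0.14 (edgeR adjusted p = 6.65e-04). Cdkn1b (p27) was lower, at 21.7 and 45.6 CPM against 177 and 164 CPM, a log2 fold change of -2.34 ± 0.33 (edgeR adjusted p = 6.50e-04).

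Metabolic genes were for the most part lower than in TUBO, in control DCCs as well as in treated DCCs. The control DCC medians were -1.83 for glycolysis and hypoxia, -1.04 for sterol and fatty acid synthesis and -0.71 for respiratory chain subunits. Of 21 glycolysis and hypoxia genes, 14 were lower and 3 were higher, with a median of -1.34, and without the second TUBO library 1 was higher. Egln3, a prolyl hydroxylase that hypoxia induces, had 3.26 and 4.71 CPM in treated DCCs, 811 and 719.9 CPM in TUBO and 4.75 and 2.89 CPM in control DCCs, a log2 fold change of -7.59 ± 0.30 (edgeR adjusted p = 3.18e-08). Gapdh had 1422 and 2464 CPM against 6344 and 7252 CPM and 1104 and 1261 CPM in control DCCs, a log2 fold change of -1.81 ± 0.27 (edgeR adjusted p = 3.40e-04). Slc16a3, the exporter of lactate, was the opposite case at 21.5 and 42.3 CPM against 0, at least 293-fold higher (edgeR adjusted p = 2.35e-04). Sterol and fatty acid synthesis counted 14 lower and 2 higher of 23, with 9 lower without the second TUBO library and 1 higher without the second treated or the first TUBO library. Dhcr7, the last step to cholesterol, had 6.01 and 5.88 CPM against 105 and 104 CPM, a log2 fold change of -4.13 ± 0.17 (edgeR adjusted p = 4.09e-08). Scd1, which desaturates fatty acids, had 57.95 and 118 CPM against 1344 and 1318 CPM, a log2 fold change of -3.92 ± 0.33 (edgeR adjusted p = 1.40e-05). Nuclear-encoded respiratory chain subunits were lower in 19 of 27, with a small median of -0.66, and in 11 without the second TUBO library.

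Immediate-early and heat shock genes were higher in 15 of 18 and lower in 2 (1 without the second TUBO library), with a median of 2.25 against 0.02 in control DCCs. These genes respond within minutes to serum, stress and cell handling. Fosl1, an AP-1 subunit, had 1373 and 1014 CPM in treated DCCs, 0.517 and 0.381 CPM in TUBO and 93.6 and 86.1 CPM in control DCCs, a log2 fold change of 11.35 ± 0.39 (edgeR adjusted p = 2.34e-08). Dusp1, a phosphatase of MAP kinases, had 237 and 768 CPM against 6.17 and 7.82 CPM and 23.3 and 19.5 CPM in control DCCs, a log2 fold change of 6.17 ± 0.71 (edgeR adjusted p = 6.21e-04). Hspa1b, an inducible chaperone, had 664 and 1191 CPM against 0.655 and 1.68 CPM and 4.44 and 6.30 CPM in control DCCs, a log2 fold change of 9.65 ± 0.54 (edgeR adjusted p = 6.84e-06). It shares nearly all of its sequence with Hspa1a, so the split between them is uncertain. The handling of these libraries is not given in the sources used here, and its part in these values was not tested. Of 16 genes of the unfolded protein and integrated stress responses, 6 were higher and 5 were lower, and 3 and 3 without the second TUBO library. Phgdh, the first step of serine synthesis, had 171 and 155 CPM against 31.4 and 36.2 CPM, a log2 fold change of 2.27 ± 0.16 (edgeR adjusted p = 1.91e-06).

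Growth factor and morphogen lists were mixed. TGF-beta and BMP genes counted 18 higher and 4 lower of 30, with a median of 2.49 (2.36 at the bounds). Tgfb1 had 96.3 and 213 CPM in treated DCCs and 0.276 and 0 CPM in TUBO, a log2 fold change of 10.02 ± 0.81 (edgeR adjusted p = 1.11e-04). Tgfb3 went the other way, at 11.9 and 19.4 CPM against 117 and 123 CPM, a log2 fold change of -2.94 ± 0.23 (edgeR adjusted p = 3.35e-06). Bmp7, a bone morphogen linked to tumour cell dormancy, had 279 and 249 CPM in treated DCCs, 52.4 and 59.9 CPM in TUBO and 19.4 and 23.4 CPM in control DCCs, a log2 fold change of 2.23 ± 0.16 (edgeR adjusted p = 2.14e-06). Control DCCs lay below TUBO, with a log2 fold change of -1.39 ± 0.16 (edgeR adjusted p = 6.52e-05), and treated DCCs lay above control DCCs (log2 fold change 3.63 ± 0.17, edgeR adjusted p = 1.09e-06). Grem1, an antagonist of BMPs, had 606 and 876 CPM in treated and 337 and 299 CPM in control DCCs against 0.310 and 0.0381 CPM, a log2 fold change of 11.97 ± 0.75 (edgeR adjusted p = 2.59e-05).

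Wnt genes counted 8 higher and 8 lower of 29. Wnt5a, a ligand of the branch that does not use beta-catenin, had 81.5 and 96.4 CPM in treated DCCs and 0.414 and 2.10 CPM in TUBO, a log2 fold change of 6.17 ± 0.57 (edgeR adjusted p = 1.73e-04). Sfrp1, a secreted Wnt antagonist, had 1.54 and 2.04 CPM against 603 and 540.2 CPM, a log2 fold change of -8.32 ± 0.25 (edgeR adjusted p = 8.66e-09). Of 31 FGF, PDGF, VEGF, HGF and IGF genes, 13 were higher and 5 were lower. Fgf7, a fibroblast factor that epithelial cells read, had 481 and 713 CPM in treated and 1068 and 1037 CPM in control DCCs against 1.72 and 0.839 CPM in TUBO, a log2 fold change of 8.85 ± 0.39 (edgeR adjusted p = 1.56e-07). Igf2r, which clears IGF2, had 37.9 and 71.1 CPM against 904 and 797 CPM, a log2 fold change of -3.96 ± 0.28 (edgeR adjusted p = 2.98e-06). Of 17 regulators linked to dormancy of disseminated cells, 10 were higher and 5 were lower. Nr2f1, a nuclear receptor studied in dormant tumour cells, had 37.8 and 45.6 CPM in treated DCCs, 3.66 and 3.97 CPM in TUBO and 94.1 and 99.4 CPM in control DCCs, a log2 fold change of 3.45 ± 0.20 (edgeR adjusted p = 4.50e-07). Axl, the receptor of Gas6, had 584 and 544 CPM in treated DCCs, 0.414 and 0.496 CPM in TUBO and 109 and 119 CPM in control DCCs, a log2 fold change of 10.27 ± 0.76 (edgeR adjusted p = 7.67e-05).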

How the data were processed

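Per the labels' protocols, RNA from cultured cells was purified on RNeasy Mini columns, and the Ovation Mouse RNAseq kit of Nugen gave the libraries. The values are whole-number counts of reads per gene that the authors deposited as 1 table. TopHat, HTSeq 0.6.1 and build mm10 are named in the submitters' processing notes, while the sources used here do not give annotation, strand setting or filters. The table's 5 closing lines, which name no gene, held 35.2% to 40.8% of reads in the 4 libraries compared and stayed out of library sizes and tests. Gene counts ranged from 27122242 to 29318066 per library, and counting error is small for genes above 1 CPM.

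Counts were analysed in R 4.3.3 with edgeR 4.0.16 (TMM, filterByExpr with a minimum count of 10, robust quasi-likelihood fit of 4 group means over all 8 libraries, 4 residual degrees of freedom), and p-values were adjusted by Benjamini-Hochberg over all 17069 genes tested, with calls at an adjusted p under 0.05. All groups shared 1 estimate of spread, since each has 2 libraries. Fold changes are given ± SE, where the SE was worked back from the fitted fold change and the F statistic of the test. It is not a separately estimated standard error. For a gene nearly absent from a group, the fitted value and its SE depend in part on the prior count. There the ± is not a measure of precision. A gene with no count in a group has a bound from 3 counts per library, and a gene with 1 to 3 counts over a group has a ratio with a 95% exact interval that covers counting error only. The test was checked on simulated data first. Same-numbered libraries of the 2 groups did not deviate together (r = 0.003 across genes), and the main fit used no pairing. With 2 libraries a group, this r cannot show whether replicate numbers pair libraries. Alternatives were DESeq2 1.42.0, other scalings, filters and thresholds, a replicate block and leaving out libraries.

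The comparison, its 45 gene lists (900 entries, 5 of them not in the table) and the rule for named genes were chosen with earlier results of these data known. The rule named the 10 calls with the largest fitted log2 fold change in each direction with at least 50 CPM in the higher group and no overlap between groups, up to 6 called members per list by adjusted p at 10 CPM or more, and a set panel. Other list members in the text were picked after their values were seen. A few genes are not reported here. Positions come from GENCODE M21 and promoters from RefSeq, which held 12347 of the genes tested.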

Additional observations from a re-analysis of the deposited data

How the results depend on the processing

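Counts of genes called higher or lower stayed within 1.5 times the reported values under each alternative but 1. Testing against a fold change of 2 (glmTreat at a log2 fold change of 1) called 2287 genes higher and 1589 lower in treated DCCs, and 1990 higher and 1544 lower in control DCCs, in each case against TUBO. Without 1 treated DCC or TUBO library at a time, treated DCCs had 3238 to 4012 genes higher and 2542 to 3243 lower, and control DCCs had 2790 to 3938 higher and 2628 to 3816 lower. A replicate block gave 3992 higher and 3278 lower, although no pairing of samples was stated. DESeq2 gave 4759 and 3559. Without the first control DCC library and the second early lesion library, 3806 were higher and 2977 lower in treated DCCs, and 2868 higher and 2287 lower in control DCCs. No control DCC library was left out alone. Upper-quartile scaling moved log2 fold changes by a median of -0.09 and the share of higher calls from 55.4% to 51.1%. Counts per list kept within 1.5 times in 61 of 90 cases under glmTreat and in 75 to 90 of 90 under the others, and list counts that moved without 1 library are given with the list. Of 279 genes named in the text or by the rule, 229 kept their direction and their side of the threshold under all 13 alternatives, and none changed direction. With 2 libraries a group the spread is borrowed from all groups, and in a fit without 1 library the lone library is assumed to vary like the others. Fitted fold changes of genes near 3 counts per library in a group depend in part on the prior count and are not measured sizes.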

Other observations

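Values outside the comparison's lists are given here without explanation. Xist, the RNA that coats the inactive X chromosome, stood at 1282 and 1842 CPM in treated DCCs, 2576 and 2626 CPM in control DCCs and 1.07 and 3.59 CPM in TUBO, a log2 fold change of 9.40 ± 0.57 (edgeR adjusted p = 5.12e-06). It stood at 2855 and 2566 CPM in the cells from early mammary lesions. The Y-linked genes Ddx3y, Kdm5d, Eif2s3y and Uty had 0 counts in all 8 libraries.

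Chromosome 4 stood apart in the comparison of treated DCCs with TUBO. Among genes with at least 10 CPM in both groups, the median log2 fold change of its 416 genes was 0.62, against 0.05 over all autosomes. On chromosome 4, 52.9% of these genes were called higher and 8.65% lower, against 28% and 24.3% over all autosomes, at an adjusted p under 0.05 in edgeR. The same genes had medians of 0.43 in control DCCs and -0.43 in the cells from early lesions, against the same TUBO libraries. Over all autosomes those medians were -0.11 in control DCCs and -0.09 in the cells from early lesions. For treated DCCs, the next highest medians were 0.41 on chromosome 16 and 0.31 on chromosome 10, and the lowest was -0.30 on chromosome 19. The chromosomes were looked at after the values of Cdkn2a and Mtap were seen.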
